A study of Mus musculus with 2 samples.

Results

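In mouse hippocampus, 240 clusters of distal sites were found, each a run of 4 or more DNase-accessible peaks that lay away from protein-coding start sites and close to each other. They held 1203 of the 27632 autosomal distal peaks found in both replicates (4.35%), and 4.51% of the summed height of those peaks. The other distal peaks were 18863 isolated ones, with no other distal peak within 5 kb, and 7566 in runs of 2 or 3. A shared peak was the stretch covered by overlapping peaks of both replicates, and 50780 were found from 132685 peaks in replicate 1 and 59880 in replicate 2. Distal meant over 2500 bp from every protein-coding start, and neighbours at most 5 kb apart were joined. Clusters were ranked by summed height, the height being the deposited signal of a peak averaged over both replicates. The clusters were thus chosen by the positions of peaks called from these data and ordered by their heights, and both are given here as descriptions without a test.

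DNase-seq marks open chromatin by sequencing the ends that the enzyme DNase I leaves in nuclei. The tissue was hippocampus of male B6CASTF1/J mice, an F1 cross of B6 and CAST parents, aged 2 months, and the labels name a hippocampal layer without saying which. All data came from 1 group of 2 samples, biological replicates with separate biosamples and 1 donor entry, so the spread between them may be partly technical. No treatment, other age or other tissue was part of the series, and in a bulk tissue a site open in few cells and a site weakly open in all cells cannot be told apart. Of 16 genes that mark hippocampal neurons, 13 had a shared peak at a start site, the exceptions being Prox1, Slc17a7 and Zbtb20.

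Dense groups of accessible sites are known from several kinds of locus. Enhancers, which raise the transcription of a gene from a distance, often lie in groups around genes for cell identity, where each site binds its own set of transcription factors. Genes of other RNA polymerases also open chromatin: transfer RNA (tRNA) genes are transcribed by RNA polymerase III from promoter elements inside the gene, the A box and the B box, which are bound by the factor TFIIIC, while TFIIIB sits just upstream. Promoters of long noncoding RNAs (lncRNAs) and microRNA hosts count as distal here, since only protein-coding starts were removed.

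The sequences below are the highest peaks of 8 of the 20 highest clusters, on the plus strand of GRCm38 (mm10), and show the kinds of site that made up the top of the ranking. For the first 3, capitals mark the tRNA gene under the peak, at chr11:69041701-69041900 (Aurkb, tRNA-Trp), chr13:23526461-23526660 (Hist1h4h, tRNA-Arg) and chr3:96500361-96500520 (Hfe2, tRNA-His). The tRNA-Trp gene runs on the plus strand and the other two on the minus strand. For the others, capitals mark bases covered by footprints of both replicates, short stretches protected from the enzyme inside an open site, and all lie between annotated protein-coding genes. Their positions are chr13:83715061-83715280 (Mef2c), chr1:86434461-86434660 (Tex44), chr11:120307681-120307860 (Actg1), chr2:28420041-28420200 (Ppp1r26), chr3:88178011-88178250 (Mef2d) and chr12:85486001-85486220 (Fos). Fos, of rank 49, was shown after its values were seen. Each cluster is called by the protein-coding gene with the nearest start, which says nothing about the gene it acts on.
Aurkb cluster, rank 1: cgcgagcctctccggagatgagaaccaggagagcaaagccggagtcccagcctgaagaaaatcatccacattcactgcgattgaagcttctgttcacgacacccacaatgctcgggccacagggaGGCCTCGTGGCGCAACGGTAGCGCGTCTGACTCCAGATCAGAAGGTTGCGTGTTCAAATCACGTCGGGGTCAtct
Hist1h4h cluster, rank 2: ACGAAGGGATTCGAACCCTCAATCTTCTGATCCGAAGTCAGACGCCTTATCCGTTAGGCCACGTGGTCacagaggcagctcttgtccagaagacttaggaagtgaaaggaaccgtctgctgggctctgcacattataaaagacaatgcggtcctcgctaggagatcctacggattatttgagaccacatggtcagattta
Hfe2 cluster, rank 4: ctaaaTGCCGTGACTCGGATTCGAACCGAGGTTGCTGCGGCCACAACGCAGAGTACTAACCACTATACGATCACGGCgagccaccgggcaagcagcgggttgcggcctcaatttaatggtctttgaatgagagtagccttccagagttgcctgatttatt
Mef2c cluster, rank 3: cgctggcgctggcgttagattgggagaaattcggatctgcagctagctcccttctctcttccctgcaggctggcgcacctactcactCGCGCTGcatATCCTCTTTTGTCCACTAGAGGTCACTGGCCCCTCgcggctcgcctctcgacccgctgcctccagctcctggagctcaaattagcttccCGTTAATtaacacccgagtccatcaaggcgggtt
Tex44 cluster, rank 6: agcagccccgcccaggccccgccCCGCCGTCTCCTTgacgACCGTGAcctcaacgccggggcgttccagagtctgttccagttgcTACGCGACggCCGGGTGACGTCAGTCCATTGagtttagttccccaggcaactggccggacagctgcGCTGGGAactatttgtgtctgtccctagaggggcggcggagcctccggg
Actg1 cluster, rank 13: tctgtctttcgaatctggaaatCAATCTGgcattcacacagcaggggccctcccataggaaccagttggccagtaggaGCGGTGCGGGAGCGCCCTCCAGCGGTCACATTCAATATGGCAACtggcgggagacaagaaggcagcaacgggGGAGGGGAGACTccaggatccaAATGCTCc
Ppp1r26 cluster, rank 16: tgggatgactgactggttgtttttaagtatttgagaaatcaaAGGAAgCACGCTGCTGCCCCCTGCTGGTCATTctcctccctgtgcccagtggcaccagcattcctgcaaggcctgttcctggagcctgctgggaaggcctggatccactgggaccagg
Mef2d cluster, rank 20: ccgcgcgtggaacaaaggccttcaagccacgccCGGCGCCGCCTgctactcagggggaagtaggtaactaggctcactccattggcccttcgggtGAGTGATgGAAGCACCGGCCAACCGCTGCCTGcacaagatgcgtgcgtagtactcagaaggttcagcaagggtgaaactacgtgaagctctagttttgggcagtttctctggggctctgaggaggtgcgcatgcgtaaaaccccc
Fos cluster, rank 49: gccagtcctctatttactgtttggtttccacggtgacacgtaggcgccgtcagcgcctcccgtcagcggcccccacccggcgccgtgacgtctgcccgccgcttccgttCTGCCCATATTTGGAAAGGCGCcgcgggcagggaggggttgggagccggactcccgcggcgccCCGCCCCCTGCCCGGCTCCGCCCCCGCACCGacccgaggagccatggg

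Matches to short motifs on either strand were looked up in these peaks. The Mef2c peak held the nuclear receptor motif AGGTCA within a footprint of both replicates. The Tex44 peak held the cAMP response element TGACGTCA, the motif of the CREB family, in the same way. The Ppp1r26 and Fos peaks held AGGGGGC, a part of the motif of the insulator protein CTCF, on the opposite strand within footprints, and in the Fos peak this match overlapped a GC box, GGGGCGGGG. A match is a description of the letters and does not show that a factor was bound.

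The clusters were short and mostly small. Of the 240 clusters, 142 held 4 peaks, 52 held 5 and 22 held 6, and the largest held 28. The median span was 3.89 kb, from 0.673 to 18.7 kb, and the clusters together spanned 1140.5 kb, of which 189.2 kb lay in peaks. Neighbouring peaks were separated by a median of 440 bp, and 139 of the 963 gaps (14.4%) were under 100 bp, less than the DNA of a single nucleosome. At the other end, 48 gaps were of 4 to 5 kb, close to the limit that joined peaks. Peaks in runs of 4, just inside the threshold, had median heights of 1.02 in replicate 1 and 0.979 in replicate 2, and those in the 616 runs of 3, just outside it, 1.18 and 1.01. Chromosome 13 held the most clusters, 23 or 19.1 per 100 Mb, followed by chromosomes 2 and 10 with 19 each. Only 18 clusters lay within 50 kb of another.

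Part of the count came from how peaks were cut. In the clusters, 301 of the 1203 shared peaks (25.02%) shared a peak of replicate 2 with another clustered peak, because 1 wide peak of replicate 2 overlapped several narrow peaks of replicate 1, and 153 (12.7%) shared a peak of replicate 1. Where only separate peaks were counted, 165 of the 240 clusters had 4 or more in each replicate. With each replicate's peak counted once, 19 of the 20 highest clusters stayed among the 20 highest.

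Summed heights were alike in order between the replicates. Across the 240 clusters the log2 sums had a Pearson correlation of 0.897 and the sums a Spearman correlation of 0.877, a description in which both replicates share the number of peaks of each cluster. The 20 highest clusters of each replicate had 13 in common, and the 20 highest by mean height held 20.8% of the height of all clusters. Summed height was higher in replicate 2 in 67 clusters, with a median log2 ratio of replicate 2 over replicate 1 of -0.28 per cluster. Single clustered peaks had a median log2 ratio of -0.04, against -0.64 in isolated peaks. Each shared peak took the full height of the replicate's peak over it. In clusters such sharing was more frequent in replicate 2 (25.02% of peaks) than in replicate 1 (12.7%). Its part in these ratios was not tested. Distal shared peaks were put in 4 equal classes by mean height. In the lowest class the medians were 0.33 in clustered and -0.01 in isolated peaks, and in the highest -0.79 and -1.11, higher for clustered peaks in all 4 classes.

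Heights were spread less within clusters than over all clustered peaks. The pooled standard deviation of log2 mean height was 0.773 within clusters and 1.11 over all clustered peaks. Part of the smaller spread is set by construction, since shared peaks that share 1 peak of a replicate take the same height in it. The highest peak still held a median of 34.7% of the summed height of its cluster, and over 50% of it in 36 clusters.

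**Figure D1:**
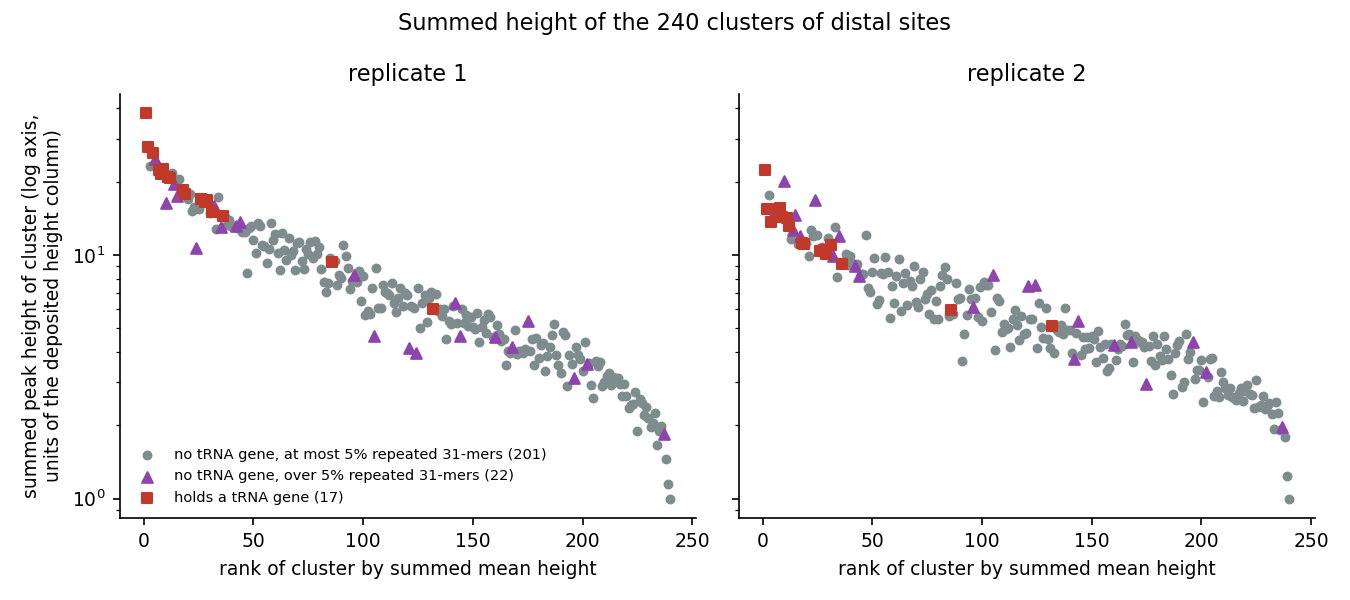
Summed peak height (log axis, in units of the deposited height) of each of the 240 clusters against its rank by summed mean height, for replicate 1 (left) and replicate 2 (right), with clusters coloured by whether they hold a tRNA gene or repeated sequence. Squares, the 17 clusters with a tRNA gene, lie mostly at the left end, with 10 of them among the 20 highest.

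Clusters of tRNA genes led the ranking. A tRNA gene lay in 17 of the 240 clusters, and 10 of these were among the 20 highest, including ranks 1, 2 and 4. Of the 386 autosomal tRNA genes annotated in RefSeq, 70 (18.1%) lay within a cluster and 64 lay under a peak of one, while 182 lay under a shared peak anywhere. The 17 clusters held 97 peaks and 15.5% of the summed height of all clusters, and 14 of them held 3 or more tRNA genes. Of clustered peaks 5.32% lay over a tRNA gene (95% exact binomial interval 4.12 to 6.74), against 0.122% of isolated peaks (0.0773 to 0.183). Intervals here and below cover counting error only.

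The highest cluster of all, chr11:69035961-69041900, began in the last part of Ctc1, a gene for telomere maintenance, and ended 3.75 kb before the start of Aurkb, a mitotic kinase gene. Its 9 peaks summed to 38.3 in replicate 1 and 22.3 in replicate 2, with single peaks from 0.492 to 7.30 and from 0.624 to 5.31. Of these peaks 7 lay over tRNA genes, for Asp, Gly, Ile, Pro, Ser, Thr and Trp, and each of these genes served a different amino acid. A further cluster at chr11:69062341-69067160, near Borcs6, held 4 tRNA genes and had rank 18, with sums of 18.5 and 11.2.

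Another tRNA region lay beside histone genes on chromosome 13. The cluster near Hist1h4h, chr13:23517188-23526660, held 7 tRNA genes under 8 peaks, with sums of 27.8 and 15.4. Nearby, the clusters at chr13:23430861-23438795 (Abt1, rank 9, 6 tRNA genes) and chr13:23445761-23453640 (Btn1a1, rank 11, 4 tRNA genes) summed to 22.6 and 14.3, and to 20.9 and 14.2. These values put 3 of the 20 highest clusters into one stretch of this chromosome.

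The other tRNA clusters among the 20 highest were scattered over 5 chromosomes. The Hfe2 cluster of rank 4 (chr3:96497741-96503380) summed to 26.3 and 13.7. The cluster between olfactory receptor genes near Olfr1423 (chr19:12002263-12012540) had rank 7, with 8 tRNA genes of which 4 lay under its 9 peaks, and sums of 22.3 and 15.4. Rank 8 near Zfp213 on chromosome 17 summed to 21.6 and 15.6, rank 12 near Rnase12 on chromosome 14 to 20.7 and 13.1, and rank 19 near Shf on chromosome 2 to 17.7 and 11.04. In all 17 tRNA clusters the sum was higher in replicate 1, a pattern also seen in 156 of the other 223 clusters.

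Peaks over tRNA genes were the high ones within these clusters. The 64 of them had median heights of 3.72 in replicate 1 and 2.21 in replicate 2, with ranges of 1.07 to 10.1 and 0.645 to 5.49. The 33 other peaks of the same clusters had medians of 1.81 and 1.41, with ranges of 0.433 to 4.72 and 0.463 to 3.28, so the ranges overlapped. The 23 isolated peaks over tRNA genes had medians of 3.29 and 2.75, so the height of tRNA peaks was seen outside clusters too. Footprints per peak were 2.95 and 2.77 over tRNA genes and 1.48 and 1.12 in the other peaks.

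The footprints over tRNA genes were arranged alike in both replicates. Bases 46 to 72, the stretch that holds the B box, were covered by a footprint in a mean of 84.8% of the 64 genes in replicate 1 and 47.7% in replicate 2, with highest values of 92.2 and 60.9%. The 30 bp upstream of the gene, where TFIIIB is known to sit, were covered in 68.0 and 38.2%. Bases 1 to 25, with the A box, were covered in 14.3 and 6.56%, and bases 26 to 45 in 24.1 and 10.4%. The first base was covered in 51.6% of genes in replicate 1 and 17.2% in replicate 2, and the base 15 bp past it in 0% in both. In both replicates the 3' part and the upstream stretch were thus covered more often than bases 1 to 25. Whether a protein covered these stretches, and which one, was not measured.

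**Figure D2:**
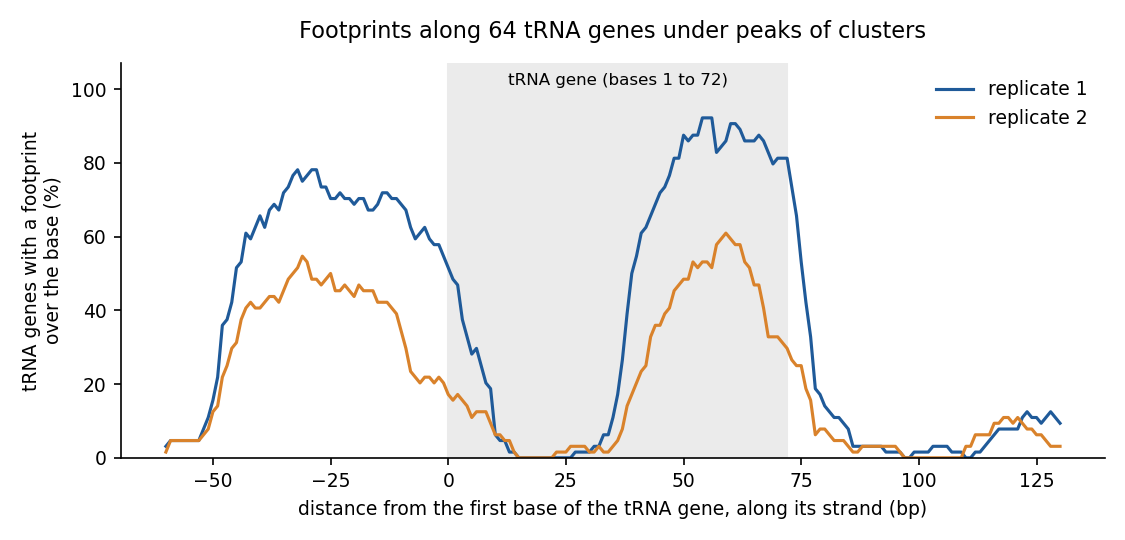
Share of the 64 tRNA genes under peaks of clusters with a footprint over each base (percent), against distance from the first base of the gene along its strand, for replicate 1 and replicate 2. Both lines are higher just upstream of the gene and over bases 46 to 72 than over most of bases 1 to 25. The highest values inside the gene are 92.2 and 60.9%.

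Many tRNA genes are near-identical copies, so reads can be placed at several of them. Of the peaks in tRNA clusters 66.0% held at least 1 stretch of 31 bases (31-mer) that recurred elsewhere in the assembly, against 8.41% of the peaks in other clusters and 4.36% of isolated peaks. No label says how reads with several placements were treated, and their part in these heights and in the footprints over tRNA genes was not tested. A further 22 clusters without a tRNA gene had over 5% repeated 31-mers as a mean over their peaks. Of these, 5 were among the 20 highest, near Ezh2 (rank 5), Sfi1 (10), Gprin1 (14), Gm31371 (15) and Klrb1b (17). In the Gprin1 cluster this mean was 5.76%, with 59.1% in 1 peak. In the Gm31371 cluster, with sums of 17.5 and 14.5, a mean of 83.4% of 31-mers per peak recurred. Of its summed mean height 1 peak held 76.9%. In the Ezh2 cluster the mean per peak was 33.8%, with 100% in 1 of its 4 peaks and 35.3% in the highest, whose heights were 15.1 and 7.63. The Sfi1 cluster was the only one of the 20 highest with a higher sum in replicate 2, 20.1 against 16.3 in replicate 1.

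Outside tRNA genes and repeated sequence, 201 clusters with 991 peaks were left, with 5 of them among the 20 highest. The Mef2c cluster was the highest of these, with 10 peaks over 18.7 kb at chr13:83713741-83732460. Mef2c encodes a transcription factor of excitatory neurons and muscle, and the cluster lay 46.7 kb past its 3' end and 60.9 kb from its nearest start. It overlapped the lncRNA genes C130071C03Rik and Gm26803, and 3 of its peaks lay at an lncRNA start. The sums were 23.2 in replicate 1 and 17.7 in replicate 2, with single peaks from 0.535 to 6.94 and from 0.839 to 3.604. A single peak 1.32 kb from the start of the first one, printed above, was the highest in both replicates (6.94 and 3.604), with 5 and 3 footprints, and 3 of the 10 peaks were higher in replicate 2.

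The Tex44 cluster, chr1:86430096-86442740, lay 2.04 kb past the 3' end of Tex44, a gene known from testis. Its 8 peaks summed to 23.1 and 15.2. The peak with the cAMP response element was the highest, at 8.67 and 4.55, and the sixth peak followed with 5.97 and 2.59. The remaining 6 peaks stood between 0.807 and 2.71 in replicate 1.

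The Actg1 cluster, chr11:120305241-120316400, lay 29.3 kb past the 3' end of Actg1, the gene of cytoplasmic gamma-actin. Its 5 peaks summed to 21.7 and 11.7, and the highest reached 10.6 and 4.31. The cluster overlapped the VISTA element mm1481, an enhancer tested in mouse embryos and annotated as active in dorsal root ganglion. The Ppp1r26 cluster, chr2:28413021-28420200, lay 26.6 kb before Ppp1r26 and summed to 20.5 and 11.1 over 5 peaks, with the highest at 7.69 in replicate 1 and 3.001 in replicate 2. These highest values came from different peaks in the 2 replicates, the last one of the cluster in replicate 1 and the first one in replicate 2. The Mef2d cluster, chr3:88173599-88181680, lay 1.51 kb past the 3' end of Mef2d, which encodes another MEF2 factor, and summed to 17.0 and 11.2 over 4 peaks, of which 2 lay at the start of an lncRNA.

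**Figure D3:**
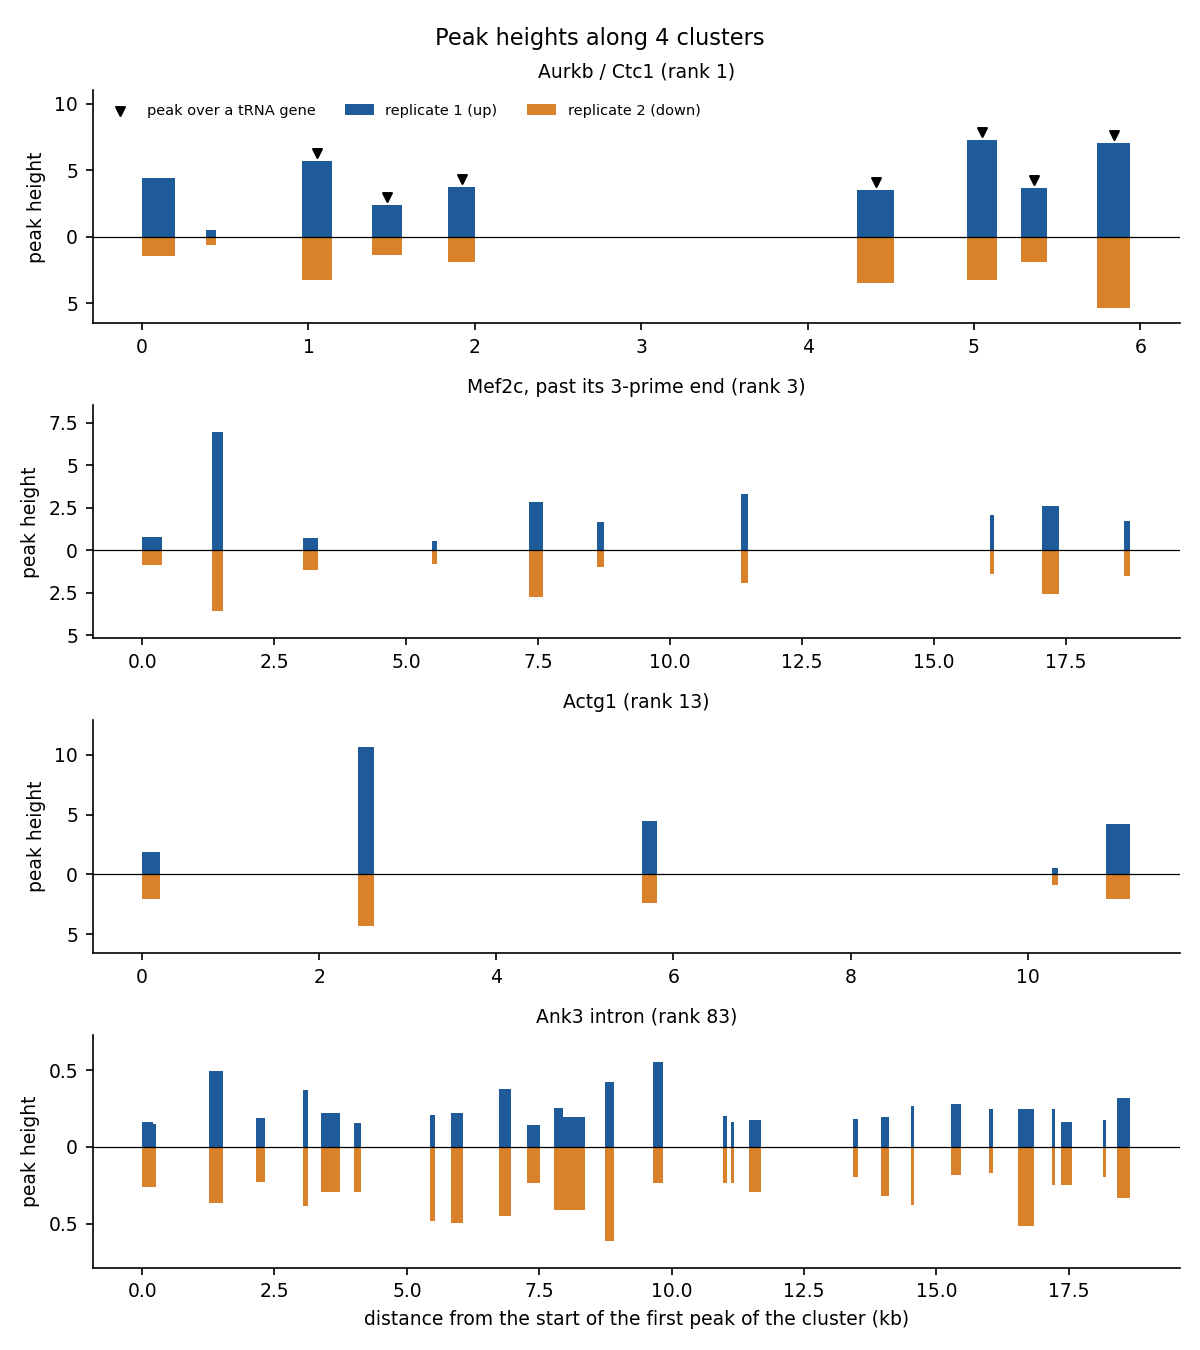
Peak height (units of the deposited height, replicate 1 upwards and replicate 2 downwards, with a separate axis for each panel) against distance in kb from the start of the first peak, for the clusters named by Aurkb, Mef2c, Actg1 and Ank3. Triangles mark the 7 Aurkb peaks over tRNA genes, and the Ank3 panel shows 28 low peaks, none above 0.556 in replicate 1 or 0.613 in replicate 2.

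The 3 clusters with the most peaks had median heights below those of isolated peaks in both replicates. An intron of Ank3, the gene of ankyrin-G that organises the axon initial segment, held 28 peaks over 18.7 kb (chr10:69629601-69648260), 58.1 kb from the nearest start. Its peaks had median heights of 0.214 in replicate 1 and 0.291 in replicate 2, with ranges of 0.144 to 0.556 and 0.172 to 0.613, and sums of 7.02 and 8.96, the latter 8.26 with each peak of replicate 2 counted once. All of these peaks were thus lower than the median isolated peak in both replicates, and 24 of the 28 were higher in replicate 2. Of them, 26 were also in the shorter peak list of replicate 1 and 18 in that of replicate 2. Isolated peaks of the same range of height were in those lists in 24.4% of 2512 and 5.67% of 4800 cases.

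The next largest were a cluster of 22 peaks in Zfand3 and one of 18 at B4galt5, a glycosyltransferase gene, with 13 intergenic peaks and 5 in the gene. The Zfand3 cluster (chr17:30184981-30197900) had median heights of 0.340 and 0.484 and sums of 8.46 and 12.04. The B4galt5 cluster (chr2:167291521-167302800) had medians of 0.225 and 0.371 and sums of 5.65 and 7.77. Separate peaks numbered 20 in replicate 1 and 19 in replicate 2 at Zfand3, and 16 and 17 at B4galt5. With each of these counted once, the sums were 7.77 and 9.55 at Zfand3 and 5.25 and 7.39 at B4galt5. Between the peaks of these 3 clusters 81.1, 80.05 and 67.5% of bases lay in accessible intervals in replicate 1, and 45.3, 29.7 and 69.7% in replicate 2. The Gprin1 cluster held 13 peaks, 12 of them intergenic and 1 in an intron of the synuclein gene Sncb, with medians of 0.722 and 0.484, and a cluster over Nmt1 and Plcd3 held 11 with medians of 0.294 and 0.334. In the latter 97.1 and 100% of the bases between peaks were in accessible intervals, and 8 of its 11 peaks lay over an exon. Of the 11 clusters with 9 or more peaks, 7 had a higher sum in replicate 2, among them Ank3, Zfand3, B4galt5, Tbr1 and Tmem161b.

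Bases between the peaks of clusters were often accessible as well. The authors' deposited intervals with a false discovery rate (FDR) under 0.05 covered 25.9% of these bases in replicate 1 and 20.3% in replicate 2. In the same length outside the ends of each cluster they covered 7.85 and 4.47%, and within 2500 bp of isolated peaks 5.20 and 2.49%. The share between peaks was the higher one in 230 of the 240 clusters in replicate 1 and 231 in replicate 2, and 47 clusters had over 50% in both replicates. These intervals come from the same reads as the peaks that the rule joined, so the excess is a description of the clusters and not independent support for them.

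Clustered peaks lay outside protein-coding genes more often than isolated ones. They were intergenic in 64.8% (95% exact binomial interval 62.1 to 67.5) against 53.3% (52.6 to 54.0), in an intron in 26.02% (23.6 to 28.6) against 39.6% (38.9 to 40.3), and over an exon in 9.14% (7.57 to 10.9) against 7.10% (6.74 to 7.48). Of whole clusters, 38.8% overlapped the body of a protein-coding gene, and 65.0% that of a gene of any type. Within clusters without a tRNA gene 62.0% of peaks were intergenic. Of isolated peaks with no shared peak within 50 kb 63.4% were intergenic, inside the interval of clustered peaks, so that difference did not hold against them.

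Starts of lncRNAs lay at some of the clustered peaks. A start of an lncRNA lay within 500 bp of 9.64% of clustered peaks (8.03 to 11.5) and 2.59% of isolated ones (2.37 to 2.82), and 52 clusters (21.7%) held such a peak. The share was higher in clusters in each of the 4 classes of mean height, with 6.97 against 2.12% in the lowest and 12.01 against 3.94% in the highest. When starts of genes of every type were removed from the outset, 150 clusters with 738 peaks were left of the 240 with 1203. VISTA elements, tested in mouse embryos, lay under 1.58% of clustered (0.954 to 2.46) and 0.392% of isolated peaks (0.308 to 0.492), but the share in clusters rests on 19 peaks in 6 clusters. Beside Actg1 these lay near Irf2bp2 (rank 45), Ly86 (55), Tmem161b (103), Camk2d (184) and Reep3 (228).

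MicroRNA genes lay in 7 clusters, which held 8 of the 1084 autosomal miRNA genes (0.738%). All 3 genes of miR-124, a microRNA abundant in neurons, were among them. Mir124a-3 lay in a cluster of 7 peaks near Ythdf1 (rank 30) with sums of 14.9 in replicate 1 and 11.7 in replicate 2, and its peaks ranged from 0.674 to 4.88 and from 0.764 to 3.17. Mir124a-1, together with Mir3078, lay in 7 peaks near Kif13b (rank 57) with sums of 10.6 and 8.51, and Mir124a-2 in 4 peaks (rank 164) with sums of 4.50 and 4.24. Mir137, another microRNA of neurons, lay in a cluster of 6 peaks (rank 108) with sums of 6.04 and 6.48, of which 5 were at lncRNA starts. Mir1191b, Mir3089 and Mir8120 lay in the other 3, of ranks 64, 65 and 178. Neighbouring peaks had equal heights at Mir124a-2 in both replicates (0.893 and 1.08). This was so in replicate 1 at Mir124a-3 (0.738) and Mir137 (0.749). In replicate 2 it was so at Mir124a-1 (1.40), Mir1191b (1.17), Mir3089 (2.76) and Mir8120 (1.83). The counts and sums of these clusters may thus include a wide peak more than once. The miRNA genes were looked up after the ranking was seen. Mature sequences from RefSeq were used for Mir137, Mir1191b, Mir3089 and Mir8120, no 2 of which share a seed, and that of miR-137-3p is given with its seed, bases 2 to 8, in capitals.
miR-137-3p: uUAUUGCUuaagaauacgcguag

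Gene lists for the cell types and functions of the hippocampus contained few genes with a cluster. Over all autosomal protein-coding genes, 229 of 20780 had the nearest start to a cluster (1.1%), and 98 had a cluster over their body (0.472%). Among 19 genes of excitatory neurons 2 had the nearest start, Mef2c and Tbr1, the latter a transcription factor of glutamatergic neurons. The Tbr1 cluster held 9 peaks of 0.278 to 1.37 in replicate 1 and 0.527 to 1.14 in replicate 2, with sums of 5.89 and 7.498. Among 21 immediate early genes, which neurons switch on with activity, 2 had one, Fos and the phosphatase gene Dusp1. The Fos cluster, chr12:85486001-85497020, lay 8.73 kb past the 3' end of Fos and held 4 peaks of 6.79, 1.89, 2.12 and 2.33 in replicate 1 and 3.55, 1.53, 1.076 and 0.914 in replicate 2, so its first peak stood apart in both. The Dusp1 cluster summed to 6.89 and 3.97. Neighbouring Dusp1 peaks had equal heights, 2.14 in replicate 1 and 0.871 in replicate 2, and its last peak was 4 bp wide. At Tbr1 neighbours had equal heights in replicate 2 (0.979). The counts and sums of both clusters may thus include a wide peak more than once.

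Of 24 potassium and sodium channel genes and their partners, Ank3 and Kcnj6 had one, Kcnj6 in an intron with 6 peaks and sums of 7.77 and 8.28. Of 23 genes of glutamate receptors and scaffolds, Dlg2 had one with sums of 3.34 and 4.66, and of 21 interneuron genes Dlx2, 78.8 kb before its start, with sums of 3.87 and 3.74. Of 13 housekeeping genes, chosen as a comparison, 2 had one, Actb at sums of 10.8 and 5.46 and Ywhaz at 3.77 and 4.32, as many as in any neuronal list. No gene had one in the lists for the dentate gyrus, the CA fields, astrocytes, oligodendrocytes and their precursors, microglia, vessels, liver and muscle. Neighbouring peaks had equal heights in replicate 2 at Kcnj6 (0.818 and 1.79), Dlg2 (1.05) and Ywhaz (0.828 and 1.33). In replicate 1 this was so at Dlg2 (0.989) and Dlx2 (0.5615). The counts and sums of these clusters may thus include a wide peak more than once. Each share of a list rests on at most 2 genes, and none was tested against the 1.1% of all genes. Genes with a cluster over them had a median length of 56.0 kb against 17.6 kb for all. Nfic, a gene of the nuclear factor I family, was nearest to 4 clusters, 3 of them over its body, with sums of 10.4 and 7.70 for the highest and 1.99 and 1.91 for the lowest.

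Heights of clustered and isolated peaks compared differently in the 2 replicates. The medians were 0.984 in clustered and 1.33 in isolated peaks of replicate 1, and 1.00 and 0.839 in replicate 2. The ratio of medians was thus 0.742 in replicate 1 and 1.19 in replicate 2, and no direction held in both. A wide peak of replicate 2 gave its height to every shared peak under it, and its part in these medians was not tested. The middle 50% of heights ran from 0.546 to 2.09 in clustered and 0.765 to 2.35 in isolated peaks in replicate 1, and 0.667 to 1.55 and 0.613 to 1.19 in replicate 2. Against the 3924 isolated peaks with no shared peak at all within 50 kb, whose medians were 0.963 and 0.635, clustered peaks were higher in both replicates. Without the tRNA clusters the clustered medians were 0.8985 and 0.957, so in replicate 1 this direction turned. Peaks of clusters were in the shorter list in 76.4 and 57.0% of cases and isolated ones in 85.8 and 42.6%, again opposite in the 2 replicates.

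Footprints were counted in the same peaks. Clustered peaks held 1.71 footprints per peak in replicate 1 and 1.30 in replicate 2, and isolated peaks 1.98 and 1.23. Without the tRNA clusters the clustered values were 1.65 and 1.22, below the isolated ones in both replicates. Per 100 bp of peak they were 1.09 and 0.824 in all clustered and 1.39 and 0.865 in isolated peaks, again lower in both. At least 1 footprint was found in 68.8% of clustered peaks (66.1 to 71.4) and 85.6% of isolated ones (85.1 to 86.1) in replicate 1, and in 61.8% (59.0 to 64.6) and 68.4% (67.8 to 69.1) in replicate 2. This share was lower in clusters in both replicates. The 4 classes were cut by the mean height of both replicates, so heights were not matched within either replicate. In all 4 the median log2 ratio of replicate 2 over replicate 1 was higher for clustered peaks. Within these classes, clustered peaks of replicate 1 had fewer footprints in the lowest (0.796 against 1.06), the second (1.26 against 1.71) and the third (1.87 against 2.18). In the highest they had 3.08 against 2.98. In replicate 2 the lowest 2 classes were close together (0.467 against 0.482 and 0.922 against 0.936), and the third and highest were above (1.52 against 1.42 and 2.45 against 2.10). In the lowest 2 classes clustered peaks thus had the lower value in both replicates, in the third the replicates differed, and in the highest clustered peaks had the higher value in both. Clustered peaks of the highest class were wider, with a median of 200 against 180 bp, and per 100 bp they had 1.62 against 1.74 footprints in replicate 1 and 1.29 against 1.22 in replicate 2. Their share with a footprint was 97.1 against 99.1% in replicate 1 and 95.1 against 95.8% in replicate 2.

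**Figure D4:**
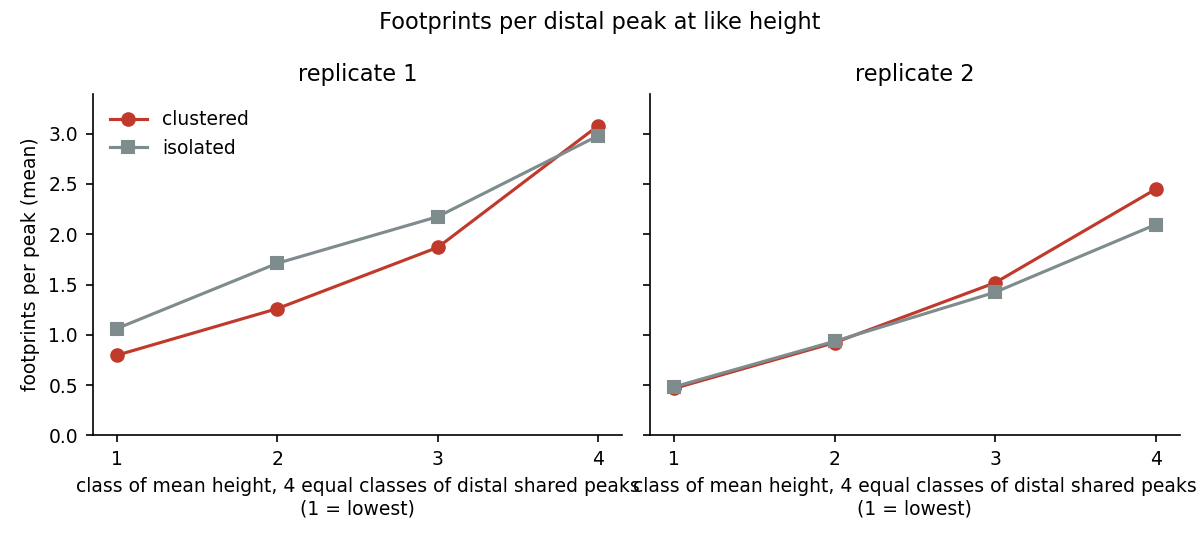
Mean footprints per peak against class of mean height (4 equal classes of distal shared peaks, 1 lowest, 4 highest), for clustered and isolated peaks, in replicate 1 (left) and replicate 2 (right). The lines cross in replicate 1, where clustered peaks have 0.796 against 1.06 in the lowest class and 3.08 against 2.98 in the highest.

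Clustered peaks were richer in G and C, with a mean of 55.1% (SD 8.57) against 52.7% (SD 6.71) in isolated peaks, and wider, with a median of 160 against 147 bp. The spread among peaks was larger than this difference. Peaks of tRNA clusters had a mean of 50.9%, so the other clusters stood at 55.5%. The E-box CAGATG, the motif of Neurod and related factors of neurons, occurred in 15.5% of clustered peaks (13.5 to 17.6) and 24.2% of isolated ones (23.6 to 24.9), against 22.8% of all distal peaks. It was rarer in clusters in all 4 classes of height, with 10.99 against 21.8% in the lowest and 14.9 against 20.9% in the highest.

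A further 5 motifs had a lower share in clusters. The symmetric E-box CAGCTG was found in 13.9% (11.98 to 15.97) against 16.3%, the nuclear factor I motif TTGGCA in 11.3% (9.57 to 13.2) against 15.7%, the CTCF motif AGGGGGC in 5.65% (4.42 to 7.11) against 8.55%, the SOX motif ACAATG in 4.74% (3.61 to 6.10) against 6.52%, and the AP-1 motif TGANTCA of Fos and Jun in 3.82% (2.81 to 5.07) against 5.91%. Of all distal peaks 15.9, 15.03, 8.34, 6.41 and 5.64% held these motifs. For all 5 the isolated share lay outside the interval of the clustered one. For CAGCTG this ended without the tRNA clusters, with 14.5% (12.4 to 16.7), and the shares were 15.3 and 15.3% in the highest class of height. For CTCF the direction turned against isolated peaks with no shared peak within 50 kb, of which 4.59% held the motif, and in the lowest class the share was 2.95% in clustered and 1.65% in isolated peaks. In the third class the SOX motif was likewise the more frequent one in clusters, with 7.12 against 6.53%. Other motifs were more frequent in clusters, the nuclear receptor motif AGGTCA with 6.57% (5.23 to 8.12) against 4.30%, the GC box GGGGCGGGG with 1.91% (1.22 to 2.86) against 0.816%, and the cAMP response element TGACGTCA with 0.914% (0.457 to 1.63) against 0.323%. The last rests on 11 clustered peaks, and by class of height it was 3.25 against 0.643% in the highest. From the lowest class to the third it was 0 against 0.042%, 0.372 against 0.341% and 0 against 0.272%. Its excess thus lay in the highest class.

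The motifs GTTGCCATG (RFX), GCGTGGGCG (EGR), CCGGAAGT (ETS), ATGCAAAT (POU), TAATTA (homeobox) and TATTTTTAG (MEF2) had isolated shares within the interval of the clustered ones, so no difference was detectable with 1203 peaks. The MEF2 motif was found in 2 clustered peaks only. A B box pattern, GTTCGANNC, added after the tRNA clusters had been seen, was present in 3.82% of clustered peaks (2.81 to 5.07) and 0.228% of isolated ones, and in 0.452% of those in clusters without a tRNA gene. Peaks differ in width, but in 200 bp around the middle of each peak the E-box CAGATG was likewise in 18.6% (16.5 to 20.9) of clustered and 31.1% (30.5 to 31.8) of isolated peaks.

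**Figure D5:**
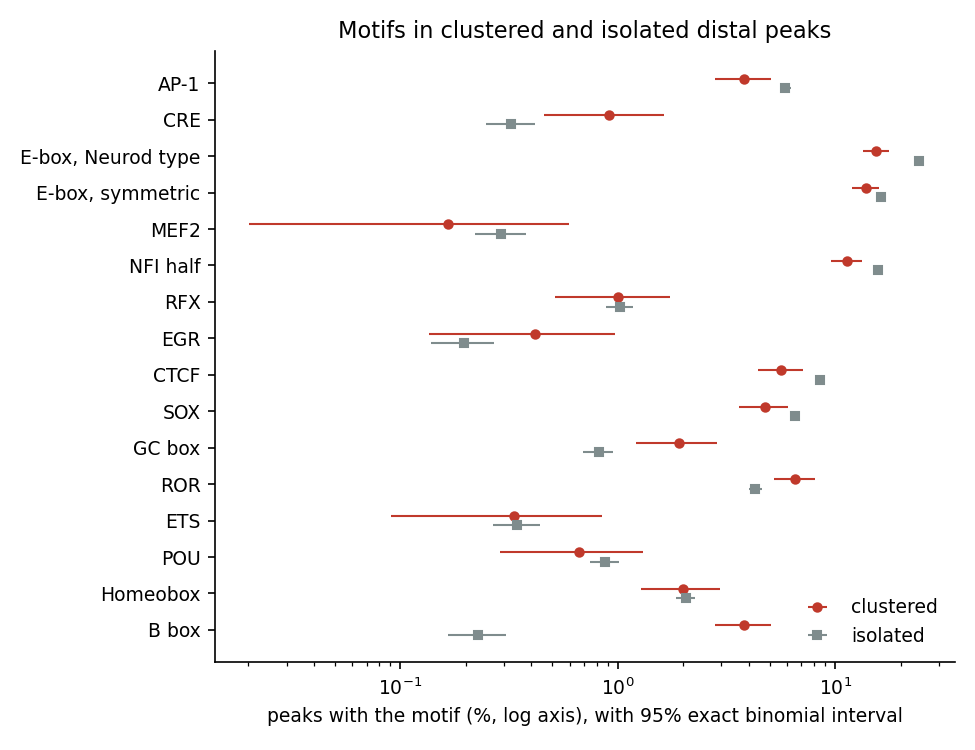
Share of clustered and isolated distal peaks with each of the 16 motifs (percent, log axis), with 95% exact binomial intervals that cover counting error only. The Neurod-type E-box stands at 15.5% in clustered against 24.2% in isolated peaks, and the B box at 3.82 against 0.228%.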

How the data were processed

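Open chromatin of 2 samples in 1 group was profiled by DNase-seq. For each, the authors deposited 2 peak lists, footprints and FDR intervals with mm10 as assembly, per the labels. No label names the aligner, the callers or the scaling. Each peak's height is a signal value that the authors deposited. Heights below 500 steps were whole multiples (tolerance 0.02 steps) of 0.00535 (replicate 1) and 0.0108 (replicate 2). Taken as 1 read on a per-million scale, these steps give depths of 187 and 93.0 M, but the depth itself is unknown, and replicate 1 then has the finer precision. The deposited FDR per interval, read as a q-value, was below 0.05 throughout, so intervals were used by position, as were footprints. Where parental alleles of the cross differ from the reference, fewer reads may be placed, which was not tested.

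The longer list of each sample was used. Starts were those of protein-coding transcripts of protein-coding genes in GENCODE M21 (GRCm38, which is mm10). The height of a shared peak in a replicate was the highest of that replicate's peaks over it. RefSeq (GRCm38.p6) gave tRNA genes, VISTA elements and sequence. The clusters, the 15 gene lists, the first 15 motifs and the alternatives were chosen with earlier results of these data known. The tRNA, lncRNA, VISTA and miRNA annotation, the 31-mer measure with its limit of 5%, the B box, and the counts of separate replicate peaks were chosen after the clusters were seen. Named clusters are the 20 highest, the 5 with the most peaks, those of the genes nearest to most clusters, and up to 3 members of each list. The 8 genes that tied at 2 clusters after Nfic are not listed as such. Of the 20 highest, sequences are shown for the 3 highest tRNA clusters and the 5 without repeated 31-mers. With 1 group of 2 samples no test was made. Intervals are exact binomial ones over peaks, which are not independent.

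Overlap and cluster finding were checked on simulated peaks, also with bedtools 2.31.1. Python 3.11.15, pandas 2.3.3, numpy 2.4.6, scipy 1.17.1, numba 0.67.0 and matplotlib 3.10.9 were used. Alternatives varied the peak list, overlap, gap, number of peaks, start distance, replicate, isolated set and motif window.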

Additional observations from a re-analysis of the deposited data

Results flagged for a closer look

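The rule for clusters kept to the 19 autosomes. On the X chromosome, which no comparison here used, 5 further runs of 4 or more distal shared peaks were found by the same joining, a signal in data left out of the ranking.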

How the results depend on the processing

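The number of clusters moved with most choices about peaks. Beside the 240 clusters with 1203 peaks, the shorter lists gave 59 with 317 peaks, an overlap of 50% of both peaks 51 with 250, and replicate 1 limited to as many peaks as replicate 2 102 with 479. A gap of 10 kb gave 416 with 2064, at least 5 peaks 98 with 635, at least 3 peaks 856 with 3051, and starts of genes of every type 150 with 738. The peaks of a single replicate gave 422 clusters with 2337 peaks (replicate 2 alone) to 2638 with 17584 (replicate 1 alone). Counts stayed within 1.5 times for a gap of 2.5 kb and for start distances of 1000 and 5000 bp. The same held for alternatives chosen after seeing the data: starts of every transcript of protein-coding genes (218 clusters), peaks under 100 bp apart counted as 1 (176), no peaks with over 5% repeated 31-mers (201) and 4 or more separate peaks of each replicate (165).

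Of the 20 highest clusters, 14 to 18 stayed when 1 replicate ranked them alone, and 12 when the highest single peak did. The ratio of median heights, clustered over isolated, averaged 0.967 over replicates, ranged from 0.742 to 1.19 between them and was 1.30 against peaks with no other within 50 kb. The difference in footprints per peak was -0.10 and became -0.46 with the shorter lists and 0.23 in the highest of 4 classes of height, with -0.27 to 0.06 between replicates. It was 0.13 against peaks with no other within 50 kb, where the sign turns, and -0.17 per 100 bp. The difference in GC was 2.37 percentage points and stayed positive: 4.64 against peaks with no other within 50 kb, 1.53 with the shorter lists, 2.74 without tRNA clusters, 2.67 without the 5 clusters with the most peaks, and 1.28 to 1.51 with the peaks of 1 replicate. Of the first 15 motifs 4 had a higher share in clusters, EGR among them with the isolated share inside its interval, and 7 against peaks with no other within 50 kb or in footprints of replicate 2. Counting genes of every type put 65.0% of clusters over a gene in place of 38.8%, 4 list genes held a cluster in their body where 10 were nearest, and bases outside clusters were accessible in 6.16% where those between peaks were in 23.1%. The causes were not tested. The planned FDR limit of 0.1 was not run, since all deposited values were below 0.05. No paired analysis was possible because the series has 1 group. What depth limits was not measured, since the depth is unknown.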
